A study of Homo sapiens with 6 samples.

Results

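The genes described here are 10 of the NF-kB system. NFKB1, NFKB2, REL, RELA and RELB encode the transcription factor subunits. NFKBIA, NFKBIB, NFKBIE, NFKBIZ and TNFAIP3 encode proteins that restrain or modulate them, called inhibitors below. NFKBIZ is listed with the inhibitors although it modulates the choice of target genes. All 10 genes were taken by gene symbol from the probe table of the chip, on which they have 16 of 47322 probes. Of the 10 genes, 9 were tested because 3 or more of the 6 arrays read a probe above background (detection p under 0.01), out of 12451 genes and unnamed probes tested in all. Transcript levels were measured on Illumina HumanHT-12 v4 arrays with total RNA of MDA-MB-231, a human triple-negative breast cancer line. One group of 3 arrays came from cells transduced with a short hairpin RNA against SOX4 (the hairpin shSOX4#1), and the other group of 3 from cells with a scrambled hairpin. All cells were of the same line in the same serum-containing medium. SOX4 is a transcription factor of the SOX family, and the series title sets it under the ion channel TRPM7 in keeping these cells mesenchymal. The comparison therefore rests on a single hairpin sequence, and nothing in the labels ties the arrays of a group to separate cultures, which leaves p-values that cover only the spread between these arrays and may be technical. In RNA of a whole culture, fewer cells that express a gene and less RNA per cell cannot be told apart. A pair of scrambled arrays share the heading of replicate 2 and are written 2a and 2b.

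NF-kB acts as a dimer. RELA, RELB and REL carry an activation domain, while NFKB1 and NFKB2 are made as precursors, p105 and p100, that are processed to p50 and p52. In resting cells the inhibitors IkB-alpha (NFKBIA), IkB-beta (NFKBIB) and IkB-epsilon (NFKBIE) hold dimers in the cytoplasm until the IKK kinase complex marks them for destruction. The RELB and p52 pair is released by a separate, noncanonical route through processing of p100. Several genes of the system are themselves switched on by NF-kB, which closes a negative feedback loop: NFKBIA and NFKBIE resynthesise inhibitor, and TNFAIP3 encodes A20, a ubiquitin-editing enzyme that shuts signalling down upstream of IKK. NFKBIZ encodes IkB-zeta, a nuclear member of the family that modulates the choice of target genes.

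The promoter letters of these genes are shown because NF-kB binds a short kappa-B sequence, and feedback genes of the pathway carry it close to their start. RefSeq windows of assembly GRCh38.p14, from 250 bases before to 50 bases after a start, were at hand for 8 of the 10 genes in 14 windows (all but RELB and NFKBIE). The kappa-B consensus GGGRNNYYCC (R is A or G, Y is C or T, N is any base) was searched on both strands. It was found in 9 of these 14 windows, in 7 of the 8 genes, whereas 11.3% of all 35116 windows and 13.3% of all 27305 genes with a window held it. The upstream 250 bases of 4 genes follow, read along the gene, with consensus matches in capitals.
NFKBIA, chr14:35404750-35404999, minus strand: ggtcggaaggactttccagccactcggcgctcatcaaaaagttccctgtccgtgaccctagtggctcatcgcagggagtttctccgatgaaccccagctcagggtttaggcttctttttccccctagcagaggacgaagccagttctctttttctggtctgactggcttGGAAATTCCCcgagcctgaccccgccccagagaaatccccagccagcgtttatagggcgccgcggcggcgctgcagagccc
TNFAIP3, chr6:137867009-137867258, plus strand: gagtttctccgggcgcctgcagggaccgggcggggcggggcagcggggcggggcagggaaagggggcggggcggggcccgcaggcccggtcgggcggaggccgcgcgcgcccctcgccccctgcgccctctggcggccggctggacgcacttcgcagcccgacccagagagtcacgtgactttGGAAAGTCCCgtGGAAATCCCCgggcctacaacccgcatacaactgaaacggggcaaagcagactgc
NFKB1, chr4:102501109-102501358, plus strand: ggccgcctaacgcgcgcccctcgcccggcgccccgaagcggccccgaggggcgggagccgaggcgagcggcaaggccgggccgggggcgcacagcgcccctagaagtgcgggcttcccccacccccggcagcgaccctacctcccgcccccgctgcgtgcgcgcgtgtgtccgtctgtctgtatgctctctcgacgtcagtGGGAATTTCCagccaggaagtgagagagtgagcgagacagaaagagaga
REL, chr2:60881324-60881573, plus strand: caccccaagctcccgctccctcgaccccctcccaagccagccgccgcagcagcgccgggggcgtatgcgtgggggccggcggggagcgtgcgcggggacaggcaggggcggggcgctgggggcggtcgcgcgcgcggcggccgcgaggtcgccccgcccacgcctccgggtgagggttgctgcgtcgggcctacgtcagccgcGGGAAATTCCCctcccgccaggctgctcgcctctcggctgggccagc

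The NFKBIA match begins at position -81 from the start, those of TNFAIP3 at -67 and -55, and that of NFKB1 at -49. REL has overlapping matches at -47 and -46. The NFKB2 windows hold GGGAATTCCC at -107 and GGGGCTTTCC at -78 from one start, and GGGACTTTCC at -21 from another. NFKBIB holds GGGAATTTCC at -28 of one start, the same letters that NFKBIZ holds at -223. Further matches begin at -106 and -176 in NFKB2 windows, at -27 and 38 in that NFKBIB window and at -239 in the other NFKBIZ window. Neither window of RELA holds a match. The letters AACAAAG, searched likewise on both strands as a recognition sequence of SOX factors, were in 0 of the 14 windows, against 5.2% of all windows. A match describes letters only, and its absence covers only these windows.

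The SOX4 level was checked first. Its probe had intensities of 136, 155 and 146 on the SOX4 shRNA arrays and 291, 357 and 336 on the scrambled arrays. After background correction and quantile normalization the log2 difference, SOX4 shRNA minus scrambled, was -2.43 ± 0.14 (SE, n = 3 per group; adjusted p = 4.1e-13, limma with Benjamini-Hochberg adjustment over all genes), and 2 of the 3 SOX4 shRNA arrays still detected it. Between 15197 and 16187 probes were detected per array, and median intensities ran from 119 to 124. The array number limits the precision.

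Most of the family was more abundant with the SOX4 hairpin. Of the 9 tested genes 7 rose, by an adjusted p under 0.05 in limma: the inhibitor genes NFKBIA, NFKBIE, TNFAIP3 and NFKBIZ and the subunit genes RELB, NFKB2 and NFKB1. Across all genes tested, 15.2% were higher at this threshold and 15.4% were lower. None of the 9 was lower (0 at an unadjusted p under 0.05 as well, where 8 were higher). For 8 of the 9 every SOX4 shRNA array lay above every scrambled array, an arrangement that 20.2% of all genes showed. The median log2 difference was 0.83 over the 5 inhibitors and 0.55 over the 4 tested subunits, beside -0.01 over all genes. In the plot of signal by array the groups separate widely for NFKBIA and NFKBIE and barely for NFKB1 and RELA.

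**Figure D1:**
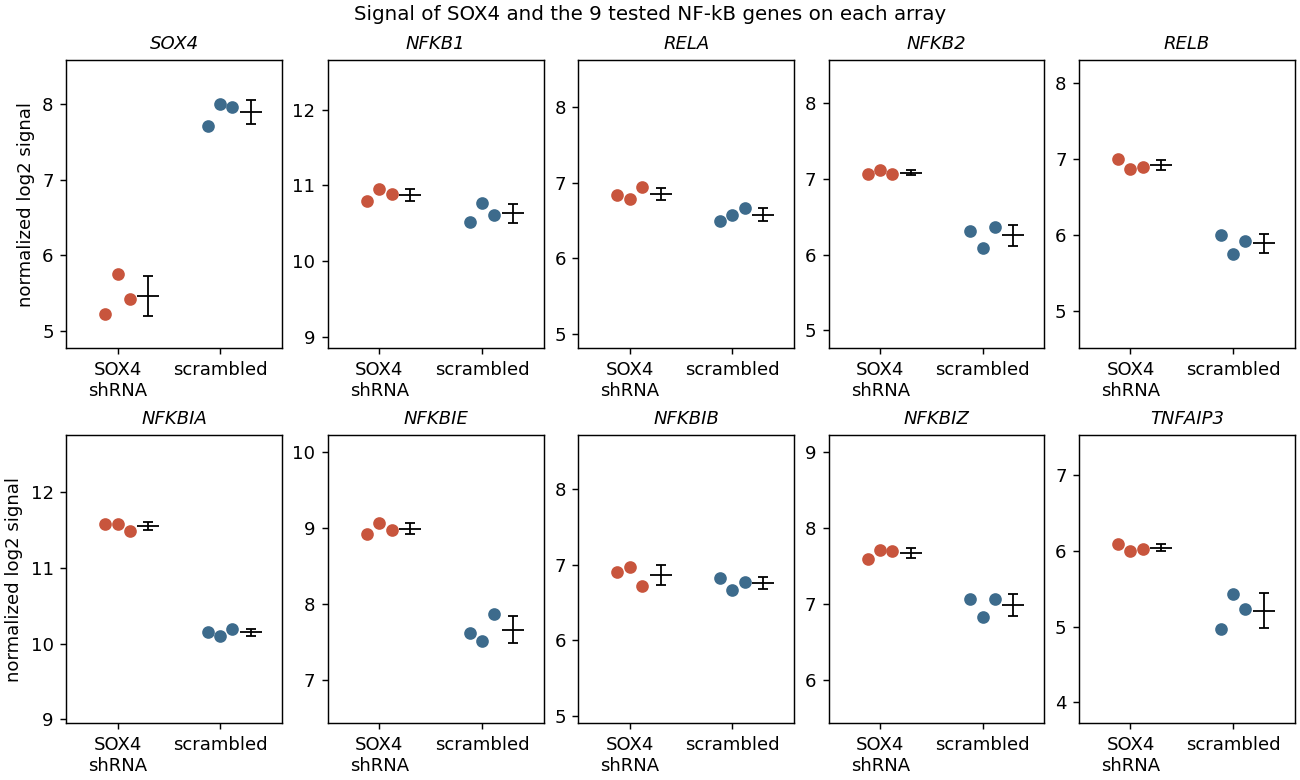
Normalized log2 signal of SOX4 and the 9 tested NF-kB genes, 1 panel a gene, with SOX4 shRNA arrays on the left of scrambled arrays; each point is 1 array and the bars show mean and SD (n = 3). Every panel spans the same range of log2 units, so that the step of 1.40 for NFKBIA can be set beside the 0.25 of NFKB1.

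NFKBIA, the inhibitor that is resynthesised first after NF-kB is activated, showed the largest difference of the 9 tested genes as processed here. In the authors' values TNFAIP3 (1.44) and NFKBIE (1.43) stood just above it (1.42), as did NFKBIE without scrambled array 2b (1.43 beside 1.42). Its probe read 3212, 3236 and 3099 intensity units on the SOX4 shRNA arrays and 1159, 1212 and 1221 on the scrambled arrays. The lowest SOX4 shRNA array thus lay far above the highest scrambled one, and the arrays of each group differed little. The normalized log2 mean was 11.55 ± 0.05 with SOX4 shRNA and 10.15 ± 0.04 with the scrambled hairpin (SD, n = 3 each), a difference of 1.40 ± 0.06 (SE; 95% interval 1.29 to 1.52; adjusted p = 3.2e-16, limma). It ranked 69th from the top among the 12451 genes and unnamed probes. As the signal is bright, this value moved little with the processing, between 1.33 and 1.43 over all alternatives.

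NFKBIE, which encodes the inhibitor IkB-epsilon, followed closely. Its intensities were 592, 659 and 634 on the SOX4 shRNA arrays and 278, 283 and 320 on the scrambled arrays, again without overlap. The log2 difference was 1.33 ± 0.09 (SE, n = 3 per group; adjusted p = 1.6e-11, limma), the 80th largest rise. The NFKBIE interval of 1.14 to 1.52 covers nearly all of that of NFKBIA.

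TNFAIP3 was dim. Its probe read 168, 165 and 171 on the SOX4 shRNA arrays, all above background, and 126, 143 and 134 on the scrambled arrays, of which 2 were above background. The A20 transcript was higher on every SOX4 shRNA array, and the log2 difference was 0.83 ± 0.18 (SE, n = 3 per group; adjusted p = 7.8e-04, limma). The gene would not have passed the detection filter on its scrambled arrays alone. So close to background the size depends on the correction: it was 0.28 with no background correction and 1.44 in the authors' values, and past the threshold in both.

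NFKBIZ had 1 informative probe of 2. That probe read 293, 317 and 320 on the SOX4 shRNA arrays and 220, 214 and 225 on the scrambled arrays, and its log2 difference was 0.69 ± 0.10 (SE, n = 3 per group; adjusted p = 1.3e-05, limma). The other probe of the gene was above background on no array, with 123 to 127 units with SOX4 shRNA and 119 to 133 with the scrambled hairpin. In the authors' values, which hold 1 row a gene, the rise of NFKBIZ was 0.24 and did not pass the threshold (adjusted p = 0.37, limma). It was 0.42 with no background correction.

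NFKBIB stood apart from the other inhibitors. Its brightest probe read 219, 229 and 214 on the SOX4 shRNA arrays and 201, 202 and 201 on the scrambled arrays, and after normalization the groups overlapped. The log2 difference was 0.11 ± 0.12 (SE, n = 3 per group; 95% interval -0.14 to 0.35; adjusted p = 0.53, limma). The other probes of IkB-beta gave -0.13 and -0.21, which did not pass it (adjusted p = 0.54 in limma for the first and 0.49 for the second). The sign therefore depends on the probe, and no direction is given for the gene. The upper bound of 0.35 for the brightest probe lies below the lower bounds for NFKBIA (1.29) and NFKBIE (1.14).

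Among the subunits, RELB and NFKB2, the partners of the noncanonical dimer, had the largest differences. RELB read 227, 221 and 228 on the SOX4 shRNA arrays and 156, 154 and 155 on the scrambled arrays. The groups lay well apart for a probe of this brightness, and the log2 difference was 1.03 ± 0.13 (SE, n = 3 per group; adjusted p = 1.1e-06, limma). With no background correction it was 0.48.

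NFKB2, the gene of p100 and p52, was read by a pair of detected probes that gave nearly the same answer. The brighter had 233, 244 and 243 units on the SOX4 shRNA arrays and 170, 168 and 175 on the scrambled arrays, and its log2 value differed by 0.83 ± 0.12 (SE, n = 3 per group; adjusted p = 9.5e-06, limma). The second had 240, 265 and 219 units with SOX4 shRNA and 162, 186 and 162 with the scrambled hairpin, and differed by 0.86 ± 0.14 (SE, n = 3 per group; adjusted p = 4.1e-05, limma). Neither probe showed any overlap between groups. In this fit, with each detected probe in a row of its own, 28.9% of 15717 probes passed the threshold in either direction, and 30.6% of genes did in the fit by gene. The remaining probe of NFKB2 was above background on no array. With no background correction the NFKB2 difference was 0.42.

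NFKB1 and RELA, the p105/p50 and p65 subunits of the canonical dimer, had small differences. NFKB1 was bright, with 1899, 2134 and 2088 units on the SOX4 shRNA arrays and 1460, 1875 and 1609 on the scrambled arrays. The lowest SOX4 shRNA array stood only just above the highest scrambled one, and the log2 difference was 0.25 ± 0.06 (SE, n = 3 per group; 95% interval 0.11 to 0.38; adjusted p = 0.0050, limma). This call was lost without scrambled replicate 1 (0.19, adjusted p = 0.050, limma) and with no intensity trend in the variance (adjusted p = 0.083, limma).

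RELA read 214, 214 and 232 on the SOX4 shRNA arrays and 180, 196 and 194 on the scrambled arrays. Although the groups did not overlap, the log2 difference of 0.28 ± 0.12 did not pass the threshold (SE, n = 3 per group; 95% interval 0.03 to 0.52; adjusted p = 0.085, limma). It did so only with no intensity trend (adjusted p = 0.040, limma). With no background correction the value was 0.14. The RELA upper bound of 0.52 lies below the lower bound of RELB (0.76). As processed here the NFKB1 upper bound of 0.38 also lies below the lower bound of NFKB2 (0.57). With no background correction these 2 genes stood closer, at 0.23 ± 0.06 for NFKB1 and 0.42 ± 0.06 for NFKB2 (SE). The gap between bright NFKB1 and dim NFKB2 thus depends on the correction.

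REL, the gene of c-Rel, a subunit best known from lymphoid cells, was not measurable. Its probes read 116 to 125 units on the SOX4 shRNA arrays and 117 to 128 on the scrambled arrays. None of these readings was above background, so no comparison is made.

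**Figure D2:**
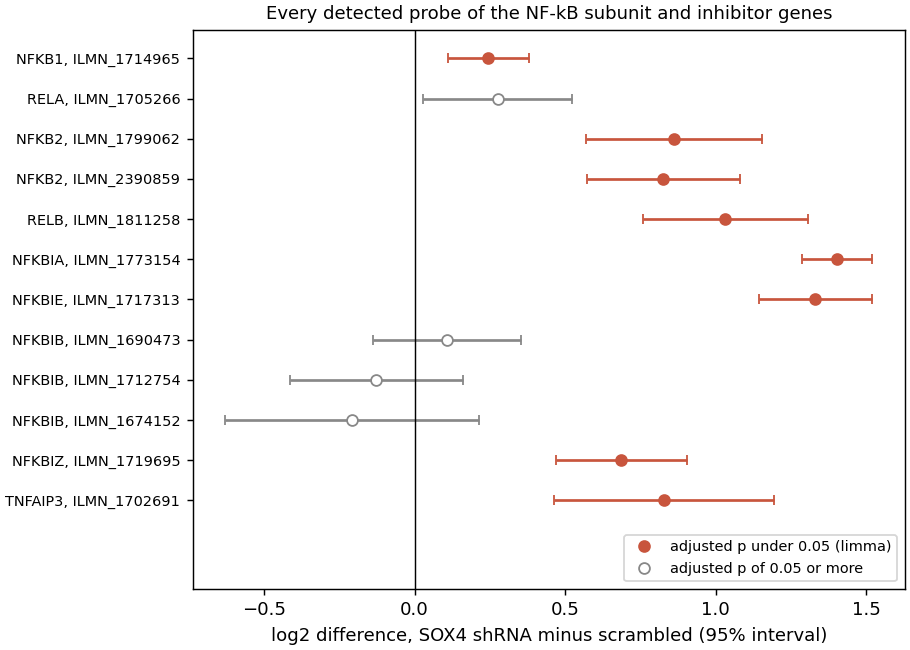
Log2 difference, SOX4 shRNA minus scrambled, of each of the 12 detected probes of the NF-kB genes, with its 95% interval; filled points have an adjusted p under 0.05 in limma. Both NFKB2 probes lie near 0.8, while the 3 NFKBIB probes scatter around 0.

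The authors' deposited table of folds puts the same 5 genes at the top in another order, with TNFAIP3 first. In the authors' deposited table the fold of SOX4 shRNA over scrambled is 2.77 for TNFAIP3, 2.66 for NFKBIA, 2.63 for NFKBIE, 2.53 for RELB and 1.98 for NFKB2. In the authors' deposited table RELA has 1.26, NFKB1 1.18, NFKBIZ 1.17 and NFKBIB 0.93. In the authors' deposited table REL has 0.79, but the REL probes were above background on no array. One of the mean columns of this table is headed with a hairpin other than the SOX4 one. Across 11890 genes (not replicates of each other) the log2 of its fold had a correlation of 0.995 with the difference computed from the deposited value table, and it was read as this comparison.

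**Figure D3:**
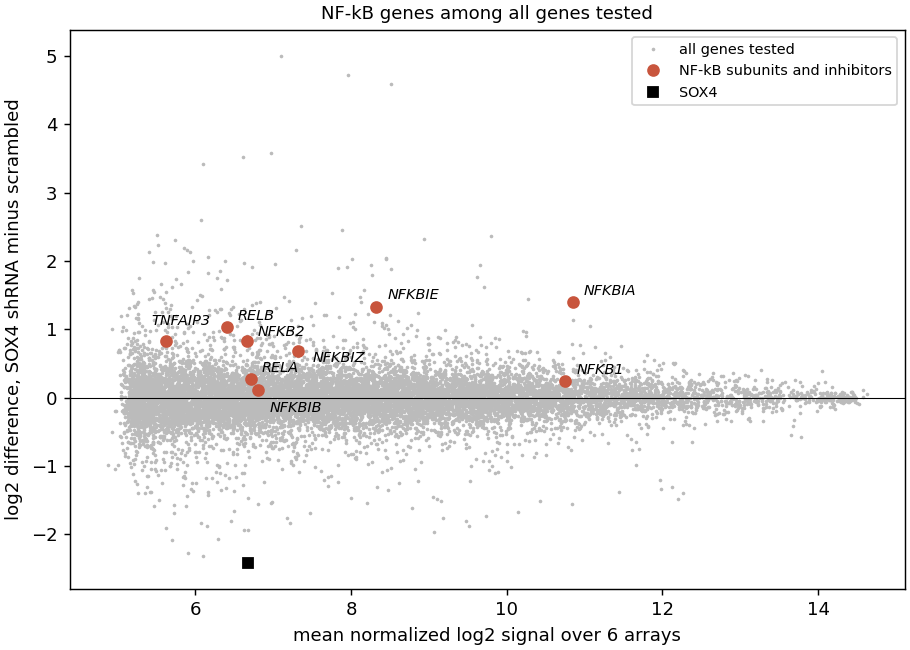
Log2 difference, SOX4 shRNA minus scrambled, against mean normalized log2 signal for all 12451 genes and unnamed probes (grey), with the 9 tested NF-kB genes in red and SOX4 as a black square. NFKBIA and NFKB1 have similar mean signal and differences of 1.40 and 0.25.

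Kinases that switch NF-kB on, listed with some of their adaptors, were called about as often as other genes. The list holds the IKK complex, kinases above it and the adaptors MAP3K7IP1 and MAP3K7IP2. Of its 15 tested genes 3 rose and 3 fell, beside 15.2% and 15.4% of all genes, and the median difference was -0.04. The catalytic subunits of IKK had differences of -0.03 ± 0.09 (CHUK) and -0.20 ± 0.09 (IKBKB), and neither passed (SE, n = 3 per group; adjusted p = 0.83 in limma for CHUK and 0.11 for IKBKB). The regulatory subunit IKBKG (NEMO) fell by 0.34 ± 0.07 (adjusted p = 3.1e-04, limma), with 898, 927 and 835 units with SOX4 shRNA and 988, 1069 and 1047 with the scrambled hairpin. The IKK-related kinase IKBKE rose by 0.80 ± 0.11, with 259, 258 and 256 units against 180, 183 and 183 with the scrambled hairpin, and by 0.43 with no background correction. TBK1, the other IKK-related kinase, fell by 0.25 ± 0.08 (adjusted p = 0.025, limma), though its arrays overlapped between groups. IRAK2 and IRAK1, kinases of the interleukin-1 and Toll-like receptor route, rose by 0.64 and 0.32, and RIPK2, a kinase of the NOD receptor route, fell by 0.34, a call lost with no intensity trend (adjusted p = 0.058, limma). The noncanonical kinase NIK (MAP3K14) had 0.19 ± 0.14 and did not pass the threshold (adjusted p = 0.32, limma).

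Adaptors and ubiquitin enzymes around the receptors rose in part. Of 14 tested TRAF, adaptor and cIAP genes, 4 rose and 0 fell, with a median of 0.13, where 15.2% of all genes were higher and 15.4% lower. BIRC3, which encodes the ubiquitin ligase cIAP2, rose by 2.33 ± 0.08, with 1158, 1189 and 1355 units on the SOX4 shRNA arrays and 305, 330 and 291 on the scrambled arrays. Its other detected probes gave 1.40 and 0.92. BIRC2, the gene of the sister protein cIAP1, had -0.09 ± 0.08 (adjusted p = 0.45, limma). TRAF1, an adaptor of tumour necrosis factor receptors, rose by 1.32 ± 0.17 but was above background on 1 scrambled array only, and the value was 0.51 with no background correction. TRAF3, which holds NIK in check, rose by 0.45 ± 0.14, which failed the threshold when scrambled array 2a (0.37) or SOX4 shRNA replicate 1 (0.38) was left out.

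Partners of A20 and enzymes that edit ubiquitin chains had small differences. Of 14 tested, 5 rose and 0 fell, with a median of 0.10, against the same shares of 15.2% and 15.4% over all genes. TNIP1, which binds A20 and ubiquitin, rose by 0.57 ± 0.08, with 847, 909 and 1120 units against 604, 645 and 649 with the scrambled hairpin. SHARPIN, a subunit of the linear ubiquitin ligase, rose by 0.34, and TNIP2, another A20 partner, by 0.33. Both calls were lost without SOX4 shRNA replicate 1 (0.29 and 0.26), where 3 genes of this list rose, and that of TNIP2 also without scrambled array 2b (0.30). The other subunits of that ligase, RNF31 and RBCK1, had -0.11 each and did not pass the threshold (adjusted p = 0.50 and 0.35, limma).

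Of the remaining IkB-related names, 3 were tested. BCL3, a nuclear IkB protein that works with p50 and p52 homodimers, rose by 0.68 ± 0.11, with 331, 324 and 319 units on the SOX4 shRNA arrays and 210, 222 and 255 on the scrambled arrays. IKBIP, named for its binding to IKK, fell by 0.25 on its brightest probe. Its call was lost under 6 alternatives, among them the authors' values (-0.20) and the mean of its probes (-0.18).

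Genes known as NF-kB targets were read in 2 lists, whose difference was not tested. The lists were chosen with earlier results of these data known. Of 17 tested genes in the list of secreted and surface products, 17 rose, where 15.2% of all genes were higher. The 17 had fitted differences from 1.36 to 5.0 and a median of 1.97. Of these, 10 were above background on no scrambled array, so that their fitted values are not measured folds. These 10 entered the test only through the SOX4 shRNA arrays, where they are high. Such a filter favours a rise, so their calls are not counted as support. When detection on all 6 arrays was required, 7 were left to test and rose, where 3523 of all 10974 genes tested changed in either direction. LTB, the lymphotoxin chain that signals through the noncanonical route, read 905, 901 and 901 units on the SOX4 shRNA arrays and 114, 121 and 121 on the scrambled arrays. On this probe it was at least 20.9-fold higher with SOX4 shRNA. No p-value is given, as LTB was above background on no scrambled array. The other LTB probe gave a log2 difference of 2.95, and the brighter one 2.88 with no background correction, so the bound holds for that probe as processed here and not for the gene. The acute-phase gene SAA1 rose by 4.59 ± 0.09 on its brightest probe and by 4.0 and 2.12 on its others. SAA2 was at least 6.0-fold higher as processed here. With no background correction the SAA2 log2 difference was 1.55, which lies below that bound. SAA1 and SAA2 are close copies, so their probes may share signal.

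The other list of targets holds mostly products that stay inside the cell. Of 13 tested, 7 rose and 3 fell, with a median of 0.15. It also holds PLAU, the secreted protease urokinase, which had 0.12 ± 0.06 and did not pass the threshold (adjusted p = 0.11, limma), so that not every tested gene of a secreted target rose. TNFAIP2 rose by 0.98, the mitochondrial superoxide dismutase SOD2 by 0.88 (0.74 on its other probe) and CFLAR, an inhibitor of caspase-8, by 0.77. PTGS2, the inducible cyclooxygenase, was above background on no SOX4 shRNA array and at least 1.63-fold lower there as processed here. It read 133, 134 and 131 units against 156, 162 and 153 with the scrambled hairpin. With no background correction its log2 difference was -0.29, a smaller fall than that bound. GADD45B, a stress response gene, fell by 0.55 ± 0.10, and TNFAIP8 by 0.31. The TNFAIP8 call failed in the authors' values (-0.17), without scrambled array 2b (-0.27) and without SOX4 shRNA replicate 1 (-0.23). Over these 6 lists together, 37 of 76 tested genes rose and 7 fell, beside 15.2% and 15.4% of all genes. The 37 include the 17 of the secreted and surface list, of which 10 were tested only through the SOX4 shRNA arrays. With detection required on all 6 arrays 26 rose and 7 fell, where 3523 of all 10974 genes tested changed in either direction. The number of list genes left to test under that filter was not counted, so no share is given. Without scrambled array 2b 4 fell.

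**Figure D4:**
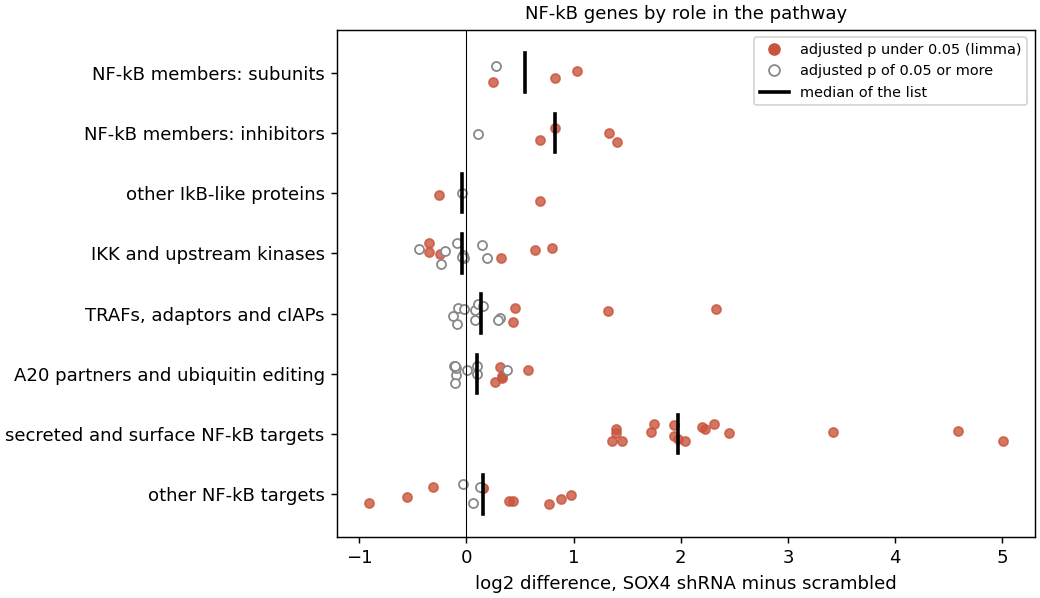
Log2 difference, SOX4 shRNA minus scrambled, of the tested genes of each list; filled points have an adjusted p under 0.05 in limma and the black bar is the median of the list. The 17 genes of the secreted and surface list lie to the right of 1, but 10 of them were tested only through the SOX4 shRNA arrays and show fitted values. The genes of the kinase list lie around 0.

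Some genes outside the family followed NFKBIA closely. By root mean square distance over the 6 arrays, with each profile centred on its scrambled mean, the 5 nearest named genes were CD83, RAB3IL1, LY6E, CXCL2 and STAT4, at 0.044, 0.064, 0.080, 0.087 and 0.10 log2 units. CD83, a surface protein of mature dendritic cells, differed by 1.39 ± 0.08 on the log2 scale, with 567, 569 and 573 units on the SOX4 shRNA arrays and 259, 274 and 258 on the scrambled arrays. The chemokine gene CXCL2 was above background on no scrambled array, so that its distance rests partly on background. With 3 arrays a group, likeness here is mainly a similar difference between the groups.

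The line and other cell types were checked through fixed markers. VIM and CD44 were detected on every array, and the epithelial and hormone receptor genes CDH1, ESR1 and PGR on none, while EPCAM, KRT8, KRT18 and ERBB2 were detected on all. VIM differed by -0.23 (adjusted p = 4.7e-04, limma) and EPCAM by 0.49 (adjusted p = 2.0e-04, limma). The 10 line markers summed to 21332 to 22107 with SOX4 shRNA and 22869 to 24188 with the scrambled hairpin, without overlap. VIM made up most of these sums, with means of 13059 with SOX4 shRNA and 14868 with the scrambled hairpin. SPARC, set down as a marker of the line, was above background on no array. Of 7 leucocyte markers, 5 were detected on no array, among them PTPRC, CD3D and ITGAM. The summed intensity of the 7 was 2789.5 to 2979.6 with SOX4 shRNA and 2435 to 2613 with the scrambled hairpin, of which CD68, a lysosomal protein gene, made up most (means of 2158 and 1773, log2 difference 0.21, adjusted p = 0.0062, limma). Of the endothelial markers 3 of 4 and of the fibroblast markers 3 of 5 were detected on no array. The endothelial sums were 460 to 489 with SOX4 shRNA and 461 to 478 with the scrambled hairpin, and the fibroblast sums 611 to 632 and 592 to 609. LUM was above background on 3 SOX4 shRNA arrays and 0 scrambled arrays (adjusted p = 0.069, limma). The part of these markers in the NF-kB differences was not tested.

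**Figure D5:**
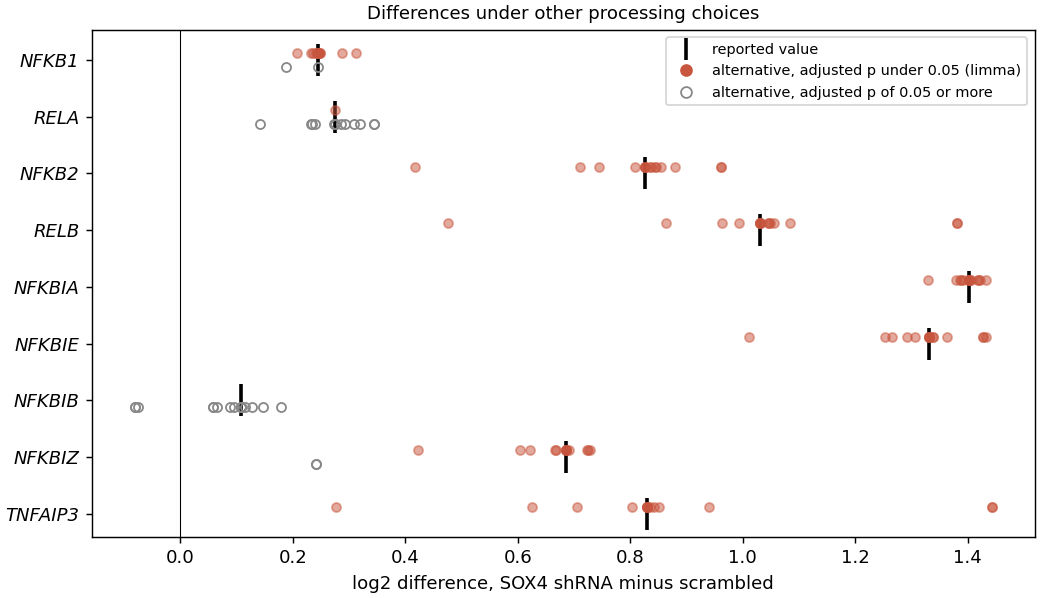
Log2 difference, SOX4 shRNA minus scrambled, of the 9 tested NF-kB genes as reported (black bar) and under other processing choices or with 1 array left out (points; filled where the adjusted p is under 0.05 in limma). NFKBIA stays between 1.33 and 1.43, whereas TNFAIP3 spans 0.28 to 1.44.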

How the data were processed

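Per the submitters' processing notes the arrays were read with GenomeStudio 2011.1. The authors deposited probe intensity on a linear scale, without background subtraction or normalization, and a detection p-value per probe and array. They also deposited log2 values with 1 row per gene symbol. A further deposited table holds log2 group means and their linear fold (ratio), attributed to RMA in ArrayStar per the file headers. Units were read from the headers and values. A pair of scrambled columns carry the same heading, that of replicate 2, and none names replicate 3. They shared 1 identical value and differed as much as other arrays of a group (SD of log2 difference 0.23), and both were used.

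Intensities were normalized with neqc (limma 3.58.1, R 4.3.3), which fits background through the detection p-values and gives quantile-normalized log2 signal (offset 16). A probe was kept if its detection p was under 0.01 on 3 arrays or more, which left 15717 of 47322. The brightest stood for its gene. The groups were fitted by lmFit, with eBayes and a trend on intensity, adjusted by Benjamini-Hochberg over all 12451 genes and unnamed probes (differences are SOX4 shRNA minus scrambled, threshold 0.05). Quantile normalization holds the median near 0, so a global shift would not show. An "at least" fold divides the bright group's mean by that of the dim group, with each dim array raised to its lowest detected signal where it lay below. The exact permutation test of 3 arrays against 3 cannot go below 0.1 and was not used.

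The genes and lists were chosen with earlier results of these data known. Named outside the 10 genes are SOX4, up to 3 raised and 3 lowered genes per list with the largest difference and no overlap, and the 5 profiles nearest to NFKBIA. CHUK, IKBKB, TBK1, MAP3K14, BIRC2, RNF31, RBCK1 and PLAU were added after their values were seen. Lists are described by counts, without a set test. One leucocyte marker is not reported here and is left out of its list. The fit was tested on simulated data. Promoter sequences are RefSeq's (GRCh38.p14). Python 3.11.15 and matplotlib 3.10.9 served for motifs and figures.

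Alternatives were no background correction, normexp without detection p-values, cyclic loess, all probes regardless of detection, only probes detected on all 6 arrays, averaged probes, each kept probe by itself, the authors' values, a variance without trend, a block for the replicate number, and each array left out in turn. No fit with slides as a block was made, since no slide is named.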

Additional observations from a re-analysis of the deposited data

How the results depend on the processing

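NFKBIA, NFKBIE, RELB and NFKB2 kept their direction and call under all 16 alternatives, or in every one that tested them, as did TNFAIP3, which detection on all 6 arrays left out. Between 6 and 7 of the family rose and 0 fell under each. NFKB1 lost its call with no intensity trend (0.25, adjusted p = 0.083, limma), where RELA gained one (0.28). With 1 array left out NFKB1 ran from 0.19 to 0.31 and lost its call without scrambled replicate 1. NFKBIZ lost its call with the authors' values (0.24), with or without the replicate block. NFKBIB, never past the threshold, ran from -0.08 to 0.18. Without background correction the differences of dim genes shrank, to -1.23 for SOX4, which was -3.22 in the authors' values. Genes changed in all ranged from 2665 (of 12067 tested) to 3815 (of 12451) around 3807. The fit with each kept probe by itself called 4540 of 15717 probes. Lowered genes of the wider lists numbered 4 to 7 with 1 array left out. The labels do not say whether samples with the same replicate number were prepared together. In the authors' values, whose columns name the samples, deviations of same-numbered samples correlated at 0.016, -0.0011 and -0.023 across 12067 genes. No shared effect was thus seen, which cannot settle how the samples were prepared. With the replicate block 2665 genes changed there, against 2852 without it, and SOX4 shRNA raised 6 of the 9 genes either way. Dim genes are limited by background, with array floors at 5.15 to 5.31 log2 units.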
